A study of Bos taurus with 16 samples.

Results

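In liver and in skeletal muscle, 19 genes were higher in every calf from an embryo produced in vitro (IVP) than in every calf from an embryo obtained by multiple ovulation and embryo transfer (MOET). They were chosen from the deposited gene counts themselves, which the authors had adjusted for age. Counts were scaled by the column total to counts per fixed library size (CPM). A gene was a member when its mean was at least 1 CPM in each organ, when the lowest of 4 IVP calves exceeded the highest of the 3 MOET calves used in both organs, and when the difference between the group means of log2(CPM+0.5) was at least 0.3 in each organ. Of the 27607 gene IDs, 10545 reached the minimum level in both organs and 22 met the thresholds. PRSS2, SLC9A3R2 and NDUFA10 were then left out as genes on a list of 11 names and 6 name prefixes, which leaves 19. The exceptions could be applied only to IDs with a name, and 5 of the 19 have none. The number depends on which calves are used and was 66 without MOET calf 5932, 62 without IVP calf 3209 and 35 without IVP calf 3208. Leaving out a calf eases the requirement of no overlap, so the number can rise for that reason alone. All 19 passed the minimum level because the choice required it, and the comparison of IVP with MOET calves is given for them as a description, with no test.

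The samples were the right lobe of the liver and the semitendinosus muscle of 8 Holstein bull calves, 4 in each group, with 1 polyadenylated, unstranded RNA library per calf and organ. The IVP calves came from oocytes that were aspirated after a mild ovarian stimulation, then matured, fertilised and cultured in serum-free medium, and the MOET calves from embryos flushed out of superstimulated and inseminated donors. All embryos were transferred fresh to synchronised recipients, and calves of both groups were reared alike. The IVP calves were 98 to 103 days old at sampling and weighed 118 to 138 kg, and the MOET calves used were 102 to 104 days old and weighed 108 to 131 kg. The groups are small families. All 4 IVP calves had the same dam, and 2 of them (3208 and 3209) shared dam and sire with MOET calves 3217 and 3218. IVP calves 5833 and 5841 had another sire, and MOET calf 5932 had another dam and sire, so embryo origin and parents cannot be fully told apart. MOET calf 3213 was 144 days old and was left out, since its deposited counts, which the authors had adjusted for age, lay close to the mean of the other MOET calves.

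The 14 libraries used held 22758137 to 24667728 counts in liver and 24964141 to 25626474 in muscle, at which 18086 to 18663 and 16996 to 17730 genes had a count. Named hepatocyte markers summed to between 11744 and 17877 CPM in liver and to at most 35.7 CPM in muscle, and named muscle fibre markers summed to at least 135008 CPM in muscle and at most 1.01 CPM in liver. These lists are thin, because the deposited table gives Ensembl IDs only. Names were taken from the supplementary tables of the study and covered 14 of the 19 genes, 73.7%, against 28.8% of the tested genes. Those tables mostly hold genes that the study selected on these same libraries.

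An embryo cultured in vitro passes from fertilisation to the blastocyst in medium, whereas an embryo collected from a donor spends those days in the oviduct and uterus. This is the period when the genome of the embryo is activated and its epigenetic marks are reset, and culture conditions in it are known to affect the growth of bovine offspring. Liver and skeletal muscle have few specialised genes in common. What they share includes basic energy metabolism, stress responses, and the cells of their blood vessels and immune system. No list of such genes held more than 1 of the 19 members, so they are described gene by gene.

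Few genes passed these thresholds in the same direction in both organs, and more passed in opposite directions. In liver, 10.0% of the tested genes (1057) passed as higher in IVP calves and 20.2% (2134) as lower. In muscle, 6.92% (730) passed as higher and 3.57% (376) as lower. Higher in both organs were 0.209% (22) before the named exceptions, against 38 genes lower in both, 94 that were higher in liver but lower in muscle, and 291 with the reverse pattern. These shares come from the contrast that chose the genes, and nothing is read from them about the members. The scaling matters here, since the median difference of all tested genes was -0.13 log2 in liver and 0.04 in muscle by column totals. With TMM scaling, which centres the bulk of the genes, these medians were 0.03 and -0.002, and the balance in liver turned over, with 1772 genes higher and 1407 lower. By TMM scaling, 61 genes were higher in both organs before the exceptions, 33 lower in both, 212 higher in liver but lower in muscle, and 244 the reverse.

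Over the 19 genes, the difference in liver had a median of 0.50 log2 (range 0.31 to 2.84), and that in muscle a median of 0.63 (range 0.34 to 2.695). It was above 1 log2 in 3 genes in liver and 5 in muscle, and under 0.7 in 14 and 11. The larger of both differences was in muscle for 12 genes and in liver for 7. The distance between the lowest IVP calf and the highest MOET calf was small, with a median of 0.14 log2 in liver and 0.21 in muscle, and at the smallest 0.01 in either organ.

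**Figure D1:**
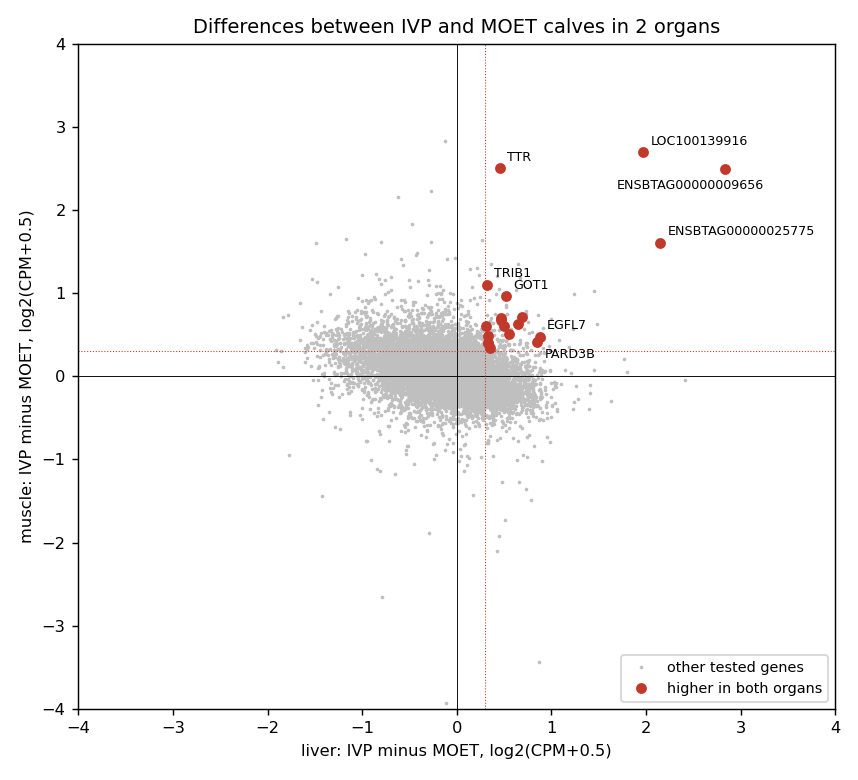
Difference between the mean log2(CPM+0.5) of 4 IVP and 3 MOET calves in liver (horizontal axis) and in muscle (vertical axis) for the 10545 tested genes (grey) and the 19 genes higher in both organs (red). Dotted lines mark the minimum difference of 0.3, and 1 gene outside the axes, at over 4 log2, is not drawn. LOC100139916, 2 genes without a name and, in muscle, TTR lie apart from the other members, which crowd near the lower limits.

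GOT1 is the cytosolic aspartate aminotransferase, an enzyme of the malate-aspartate shuttle that carries reducing equivalents into mitochondria. In liver it stood at 136, 87.3, 120.3 and 77.3 CPM in IVP calves 3208, 3209, 5833 and 5841 and at 65.7, 72.9 and 76.8 CPM in MOET calves 3217, 3218 and 5932, the orders kept for all genes that follow. In muscle the values were 176, 133, 179 and 267 CPM against 94.0, 86.5 and 99.2 CPM. In liver, IVP calf 5841 was thus level with MOET calf 5932, while in muscle the same calf was the highest and the groups were well apart. The mean was 105 ± 27.7 CPM (SD, n = 4) against 71.8 ± 5.62 (SD, n = 3) in liver, a difference of 0.52 log2, and 189 ± 56.4 against 93.2 ± 6.41 in muscle, a difference of 0.97.

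SDHC encodes a membrane subunit of succinate dehydrogenase, the enzyme that belongs to both the tricarboxylic acid (TCA) cycle and the respiratory chain. Its liver values were 98.7, 91.1, 109.7 and 84.8 CPM in IVP calves against 71.6, 75.5 and 57.1 CPM in MOET calves. In muscle they were 78.6, 75.8, 104 and 112 CPM against 63.1, 67.0 and 50.8 CPM. In both organs MOET calf 5932 was the lowest and the groups were parted by less than 0.2 log2, so that the differences of 0.50 log2 in liver and 0.61 in muscle were 0.38 and 0.49 without that calf. Among the 4 calves of the same parents they were 0.36 and 0.24.

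ACAA2 is the mitochondrial thiolase that performs the last step of fatty acid β-oxidation. It stood at 597, 535, 738 and 602 CPM in the liver of IVP calves and at 507, 507 and 452 CPM in MOET calves, and in muscle at 66.1, 59.6, 92.5 and 85.2 CPM against 55.9, 56.3 and 57.2 CPM. IVP calf 5833 was highest and calf 3209 lowest of the IVP calves in both organs, and the 3 MOET calves hardly varied in muscle (56.4 ± 0.681 CPM, SD, n = 3). The differences of 0.33 log2 in liver and 0.40 in muscle were 0.16 in each organ among the 4 calves of the same parents, the smallest in muscle of all 19 genes.

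GLRX, the cytosolic glutaredoxin that reduces protein disulfides with glutathione, was close to the threshold. It measured 38.1, 44.7, 38.3 and 45.9 CPM against 30.8, 33.7 and 34.8 CPM in liver, and 30.8, 24.0, 32.7 and 29.7 CPM against 21.2, 23.9 and 20.8 CPM in muscle. In muscle, IVP calf 3209 and MOET calf 3218 were 0.01 log2 apart. The mean differences were 0.33 and 0.40 log2.

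The genes of these pathways, from textbook lists that include SDHC and ACAA2, were compared by the same rule of no overlap and at least 0.3 log2. SDHC and ACAA2 count as higher in both organs by the choice itself. Listed genes could be counted only where named, and the names mostly belong to genes the study selected on these libraries. Their shares can exceed those of all tested genes for that reason alone, so no enrichment is read from any list here. Of 26 genes listed for the TCA cycle and its entry, 10 could be named and were measured. In muscle 5 of them were higher and none lower, against 6.92% and 3.57% of all tested genes (median 0.45 log2, against 0.04), with PDHA1 at 0.66 and DLD at 0.71 log2, both parts of the pyruvate or 2-oxoacid dehydrogenase complexes. In liver 2 were higher and 1 lower, against 10.0% and 20.2% (median 0.03 log2, against -0.13), with PDHA1 at -0.55 and DLD at -0.31, and SDHC was the only one of the 10 that was higher in both organs. Of 39 listed genes of fatty acid oxidation and ketone metabolism, 14 could be named. In muscle 5 of the 12 that were measured there were higher and none lower (6.92% and 3.57% of all tested genes), with a median of 0.39 log2. In liver 4 of 14 were higher and 3 lower (10.0% and 20.2% of all tested genes), with a median of 0.17 log2. ACADM, the medium-chain acyl-CoA dehydrogenase, differed by 0.81 log2 in muscle and -0.58 in liver, and PPARA, the fatty acid sensing nuclear receptor, by 0.64 and -1.15. ACAA2 was the only one of these that was higher in both organs.

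EGFL7 is a secreted protein made by endothelial cells, and it acts in the formation of vessels. It showed 51.3, 61.2, 63.8 and 109 CPM in the liver of IVP calves against 30.6, 41.8 and 39.3 CPM in MOET calves. Muscle had 91.2, 76.9, 149 and 84.9 CPM against 67.4, 65.3 and 76.1 CPM. Calf 5841 stood out in liver, and calf 5833 in muscle, where the lowest IVP and the highest MOET calf were 0.01 log2 apart. The difference was 0.88 log2 in liver, 0.66 without calf 5841, and 0.48 log2 in muscle, 0.28 without calf 5833.

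GJA4 encodes connexin 37, a gap junction protein of arterial endothelium. Its CPM in liver were 26.5, 24.3, 22.2 and 24.8 in IVP calves against 18.4, 20.3 and 20.03 in MOET calves, a tight pair of groups with means of 24.5 ± 1.77 (SD, n = 4) and 19.6 ± 1.03 (SD, n = 3). In muscle they were 27.8, 20.6, 39.3 and 18.9 against 16.02, 15.98 and 18.03. Here calves 5833 and 3208 were high, whereas 5841 was within 0.07 log2 of the highest MOET calf. The differences were 0.31 log2 in liver, the smallest of the 19 there, and 0.60 in muscle, 0.40 without calf 5833.

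The other endothelial markers were compared in the same libraries. Of 13 endothelial genes listed, 4 could be named. Without EGFL7, the sum of the other 3 (CDH5, VWF and CLDN5) ranged from 126 to 148 CPM in IVP livers and from 129.7 to 165 CPM in MOET livers, overlapping, with VWF at -0.61 log2 and CLDN5 at 0.98. In muscle the sum ranged from 117.8 to 224 CPM in IVP calves, highest in calf 5833, and from 107 to 118.2 CPM in MOET calves, just overlapping. CDH5, the endothelial cadherin, was 0.71 log2 higher there. None of the 3 was at 0 in either organ. In bulk tissue, more endothelial cells and more RNA per endothelial cell cannot be told apart, and the part of either in EGFL7 and GJA4 was not tested. Markers of other cell types also differed. The 4 named of 12 fibroblast and stellate cell markers summed to 475 to 662 CPM in IVP and 808 to 947 CPM in MOET livers. In muscle they summed to 771 to 1079 against 1227 to 1739 CPM. Both sums were lower in IVP calves without overlap, with 3 of the 4 lower in each organ (20.2% and 3.57% of all tested genes) and none at 0. The 6 named of 18 muscle fibre markers summed to 135008 to 157716 CPM in IVP and 158011 to 165033 CPM in MOET muscles. In muscle 2 of the 6 were higher and 2 lower (6.92% and 3.57% of all tested genes). The part of these cell types in the members' values was not tested.

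**Figure D2:**
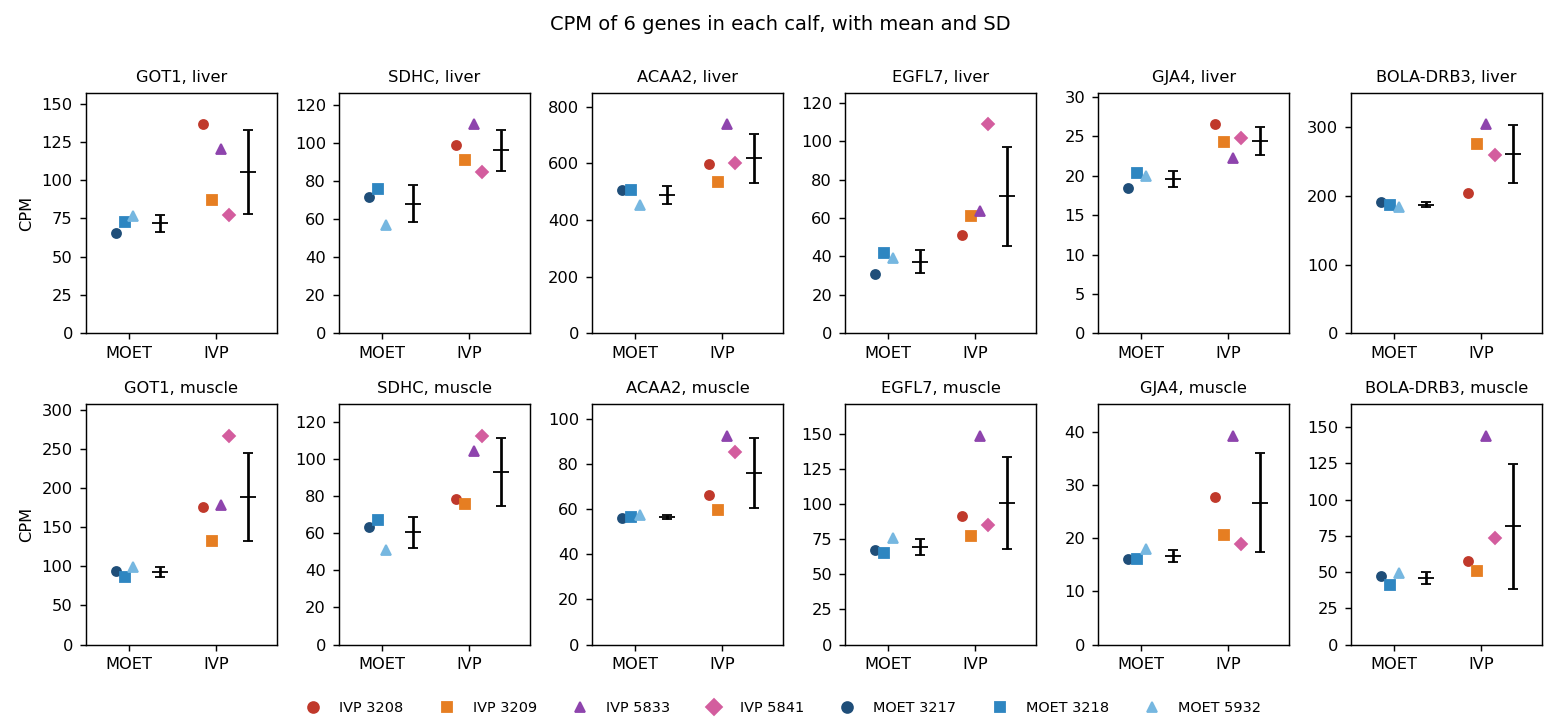
CPM of GOT1, SDHC, ACAA2, EGFL7, GJA4 and BOLA-DRB3 in liver (top) and muscle (bottom), with 1 symbol for each of 4 IVP and 3 MOET calves and the mean ± SD of each group beside them. Every IVP symbol lies above every MOET symbol, by as little as 0.01 log2 for GOT1 in liver and EGFL7 in muscle, and calf 5833 sets the top of EGFL7, GJA4 and BOLA-DRB3 in muscle.

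BOLA-DRB3 is the main expressed β chain of the bovine class II major histocompatibility complex, which presents peptides to helper T cells. Liver values were 205, 276, 305 and 259 CPM in IVP calves against 192, 187 and 185 CPM in MOET calves. Muscle values were 57.6, 50.6, 144 and 73.6 CPM against 47.2, 40.9 and 49.2 CPM. The MOET calves were alike in liver (SD 3.68 CPM or 0.028 log2, n = 3), against a median SD of 0.156 log2 over all tested genes. In muscle their spread (SD 4.31 CPM or 0.137 log2, n = 3) was near the median of 0.157 log2. Calf 5833 was highest in both organs. The difference of 0.46 log2 in liver was 0.38 without that calf, and the 0.70 in muscle was 0.39. The gene has many alleles and near-identical paralogs between which reads can be split, so its values are uncertain.

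Of 15 genes listed for antigen presentation, 6 could be named, with BOLA-DRB3, higher in both organs by the choice, among them. In liver 4 were higher and none lower (10.0% and 20.2% of all tested genes), with CD74, the class II invariant chain, and BOLA-DMB each at 0.46 log2. In muscle 1 was higher, BOLA-DRB3 itself (6.92% of all tested genes), although the median of the 6 was 0.48 log2 there and 0.46 in liver. Of 20 immune cell markers listed, 4 could be named, the macrophage genes CSF1R, C1QA, C1QB and C1QC. They summed to 1567 to 2350.1 CPM in IVP livers and 1231 to 1657 CPM in MOET livers, and to 18.7 to 60.1 against 26.01 to 37.0 CPM in muscle. None was at 0, both pairs of ranges overlapped, and the highest calf was 5841 in liver and 5833 in muscle. Their median difference was 0.51 log2 in liver and -0.21 in muscle, against -0.13 and 0.04 over all tested genes. None of the 4 passed as higher or lower in liver (10.0% and 20.2% of all tested genes) or in muscle (6.92% and 3.57%). Whether immune cell content moved with BOLA-DRB3 was not tested.

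LOC100139916, whose product is named interleukin 32-like in the tables of the study, had the third largest difference in liver and the largest in muscle. Liver held 9.78, 12.3, 4.92 and 11.2 CPM in IVP calves against 1.45, 2.11 and 2.36 CPM in MOET calves. In muscle it stood at 2.77, 2.55, 3.11 and 3.89 CPM, or 71, 64, 79 and 98 counts, against 0.158 CPM (4 counts) in MOET calf 3217 and 0 counts in calves 3218 and 5932, where a count of 0 allows up to 0.119 and 0.12 CPM. The groups were far apart in both organs, by 0.92 log2 in liver and 2.21 in muscle. The differences of 1.97 and 2.695 log2 depended on the pseudocount and were 1.495 and 1.30 when 2 replaced 0.5.

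PPP1R15A (GADD34) directs a phosphatase to the initiation factor eIF2α and so ends the integrated stress response. It was at 16.8, 16.3, 19.5 and 17.5 CPM against 10.7, 13.7 and 13.4 CPM in liver. In muscle it was at 18.0, 19.7, 39.3 and 32.6 CPM against 16.2, 15.1 and 16.7 CPM, with calves 5833 and 5841 high and 3208 and 3209 little above the MOET calves. The differences were 0.47 log2 in liver and 0.68 in muscle, and 0.26 in muscle among the 4 calves of the same parents. Of 28 listed genes of the integrated stress and unfolded protein responses, 8 could be named, with PPP1R15A, higher by the choice, among them. In liver 2 were higher and 3 lower (10.0% and 20.2% of all tested genes), and in muscle 2 were higher and 1 lower (6.92% and 3.57%). Their median difference was -0.17 log2 in liver and 0.07 in muscle. ATF3, a transcription factor of this response, differed by 2.83 log2 in muscle and by -0.12 in liver, so that PPP1R15A was the only one of the 8 that was higher in both organs.

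TRIB1 is a pseudokinase that marks the transcription factor C/EBPα for degradation and is known for its influence on liver lipids. Its liver values were 23.2, 26.3, 23.5 and 20.3 CPM in IVP calves against 17.3, 18.3 and 20.1 CPM in MOET calves. In muscle it was at 69.1, 51.0, 94.2 and 84.5 CPM against 27.9, 30.3 and 44.8 CPM. Calf 5841 was lowest of the IVP calves in liver, at 0.01 log2 above the highest MOET calf, but among the highest in muscle. The mean in muscle was 74.7 ± 18.9 CPM (SD, n = 4) against 34.4 ± 9.15 (SD, n = 3), a difference of 1.10 log2, and that in liver was 0.32.

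GRAP is an adaptor protein of the GRB2 family that links receptors to Ras signalling. It stood at 11.5, 12.5, 14.3 and 12.8 CPM against 11.2, 10.8 and 8.37 CPM in liver, and at 2.85, 2.15, 3.11 and 2.07 CPM against 1.58, 1.63 and 1.72 CPM in muscle. In liver the group difference of 0.33 log2 leaned on MOET calf 5932, the lowest, and was 0.21 without it and 0.13 among the calves of the same parents. In muscle it was 0.49.

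PARD3B belongs to the Par3 family of proteins that set cell polarity at junctions. In liver 3 IVP calves had nearly the same level, 3.29, 3.29 and 3.41 CPM, and calf 5841 had 11.4 CPM, against 2.64, 1.703 and 2.75 CPM in MOET calves. Muscle had 3.28, 3.11, 3.55 and 2.74 CPM against 2.29, 2.23 and 2.20 CPM, with no calf apart. The difference in liver was 0.85 log2 with calf 5841 and 0.44 without, and that in muscle was 0.42.

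C18H16orf87, an open reading frame with no role given here, showed the same form in liver, with 8.38, 7.67, 9.41 and 18.2 CPM against 7.34, 6.81 and 6.44 CPM. In muscle it had 2.34, 2.31, 3.19 and 2.74 CPM against 1.58, 1.91 and 1.60 CPM. The difference of 0.55 log2 in liver was 0.29 without calf 5841, and that in muscle was 0.51.

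TTR encodes transthyretin, the carrier of thyroxine and retinol-binding protein in blood, which hepatocytes secrete. Liver had 6012, 5454, 5618 and 7009.6 CPM in IVP calves against 4478, 4450.0 and 4215 CPM in MOET calves, means of 6023 ± 698 (SD, n = 4) and 4381 ± 144 (SD, n = 3) that differed by 0.45 log2. In muscle it was at 2.30, 31.9, 4.26 and 2.26 CPM, or 59, 801, 108 and 57 counts, against 0.513, 0.716 and 0.401 CPM, or 13, 18 and 10 counts. Calf 3209 was far above all others in muscle, and the difference there was 2.51 log2 with it and 1.68 without it.

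Other transcripts of hepatocytes were looked at in the same muscles. APOA2 and APOB, apolipoproteins of high and low density lipoproteins, were at 0 in all 7 muscle libraries, although APOA2 had a mean of 5622 CPM in IVP livers. ASGR1, the hepatocyte asialoglycoprotein receptor, reached at most 0.434 CPM in muscle. The other 3 named markers, TTR, APOA1 and PCK1, reached a mean of 1 CPM there. TTR, by the choice, was the 1 that passed as higher, and none passed as lower (6.92% and 3.57% of all tested genes). The median difference of these 3 in muscle was 0.63 log2. The 5 named hepatocyte markers other than TTR, of 18 listed, summed to 1.87 to 5.72 CPM in IVP muscles, highest in calf 5833 and not in calf 3209, and to 1.76 to 3.62 CPM in MOET muscles. In liver the same 5 ranged from 8732 to 10867 CPM against 7266 to 7562 CPM. With TTR, higher by the choice, 4 of the 6 were higher (10.0% of all tested genes), and APOB was at -0.86 log2.

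**Figure D3:**
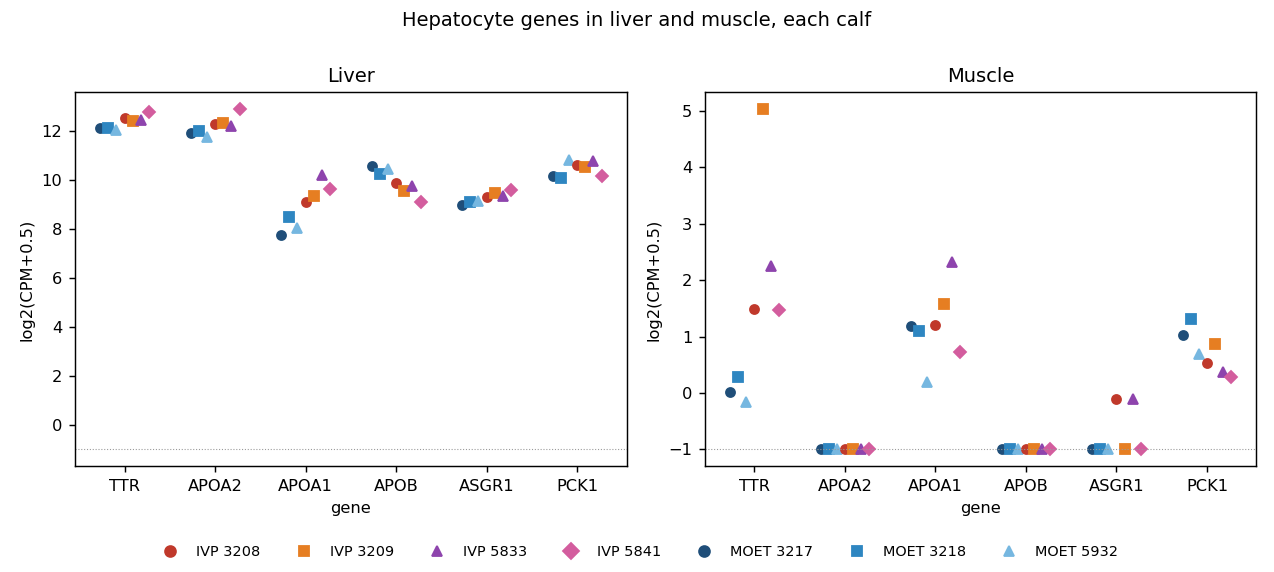
Log2(CPM+0.5) of TTR and 5 other hepatocyte genes in liver and muscle of 4 IVP and 3 MOET calves. In muscle TTR is highest in IVP calf 3209 (31.9 CPM), while APOA2 and APOB lie at 0 CPM, marked by the dotted line, in all 7 libraries.

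The 5 members without a name are given by their IDs. ENSBTAG00000009656 had the largest smaller difference of all 19, and the other 4 were singled out after their values were seen. ENSBTAG00000009656 was at 36.0, 74.7, 47.4 and 46.9 CPM against 0, 27.3 and 23.9 CPM in liver, and at 6.79, 8.33, 19.7 and 10.5 CPM against 0, 3.02 and 3.69 CPM in muscle. MOET calf 3217 had no count in either organ, which allows up to 0.132 CPM in liver and 0.118 in muscle, whereas the other MOET calves, and calf 3213 with 11.3 and 1.69 CPM, expressed the gene. The differences of 2.84 and 2.49 log2 were 0.94 and 1.51 without calf 3217.

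ENSBTAG00000025775 was set by single calves. In liver it was at 0.986, 18.96, 0.777 and 6.81 CPM in IVP calves against 0.264, 0.446 and 0.558 CPM, so that calf 3209 and then calf 5841 stood out. In muscle it was at 0.937, 0.957, 23.3 and 0.914 CPM against 0.434, 0.517 and 0.401 CPM, where calf 5833 alone was high. The calf with the high muscle value had the lowest liver value of the IVP calves. The differences were 2.15 log2 in liver, 1.39 without calf 3209, and 1.61 in muscle, 0.60 without calf 5833.

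ENSBTAG00000043567 was an abundant transcript, with 1459, 1810.3, 1537 and 2718 CPM against 1003, 1103 and 1305 CPM in liver and 3955, 3296, 4559 and 4407 CPM against 2251, 2587 and 2554 CPM in muscle. Its differences were alike in both organs, 0.69 and 0.71 log2, and the mean CPM was 1.65-fold that of MOET calves in each. ENSBTAG00000007382 had 9.16, 8.50, 8.29 and 22.1 CPM against 7.47, 6.24 and 6.74 CPM in liver, where calf 5841 decided 0.65 log2 that were 0.32 without it. In muscle it had 7.41, 8.25, 7.49 and 8.30 CPM against 4.26, 5.80 and 4.73 CPM, a difference of 0.63 log2 with no calf apart. ENSBTAG00000018908 was at 11.5 to 14.7 CPM against 8.74 to 10.9 CPM in liver and at 4.05 to 5.01 CPM against 2.88 to 3.90 CPM in muscle, with differences of 0.35 and 0.34 log2.

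Just inside the threshold of 0.3 lay GJA4, TRIB1 and GLRX, whose smaller differences were 0.31, 0.32 and 0.33 log2, all in liver. Just outside lay PHYH, a peroxisomal enzyme that starts the breakdown of phytanic acid, at 0.26 log2 in liver and 0.49 in muscle, and LMO2, a regulator of blood and vessel development, at 0.20 and 0.39 log2. No other gene among the 21 without overlap in both organs fell short of 0.3.

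Most of the 19 genes varied more among IVP than among MOET calves. On the log2 scale, the SD of IVP calves was above that of MOET calves in 15 genes in liver and 16 in muscle, and the median SD was 0.242 against 0.152 in liver and 0.297 against 0.117 in muscle. This was also common among all tested genes, at 71.7% in liver and 63.7% in muscle, with median SDs of 0.238 against 0.156 and 0.202 against 0.157. In liver the highest value was in calf 5841 for 8 of the genes, in 5833 for 5, in 3209 for 4 and in 3208 for 2. In muscle calf 5833 was highest for 14, calf 5841 for 4 and calf 3209 for 1, and calf 3209 was the lowest IVP calf for 10. The highest calf was the same in both organs for 5 genes, PPP1R15A, BOLA-DRB3, GRAP, ACAA2 and ENSBTAG00000007382. Of all genes that were higher in IVP livers, 92.6% were highest in calf 5841, and of those higher in IVP muscles 53.7% were highest in calf 5833.

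Leaving out the highest IVP calf of each gene kept a difference of at least 0.3 log2 in 12 genes in liver and 16 in muscle. Among the 4 calves of the same dam and sire, both IVP calves were above both MOET calves in all 19 genes in each organ, which the choice of genes fixed and which held for 25.1% of the tested genes in liver and 25.1% in muscle. The median difference in these 4 calves was 0.39 log2 in liver and 0.50 in muscle, and it was below 0.3 in 4 genes in liver (C18H16orf87, GRAP, ACAA2 and ENSBTAG00000018908) and in 6 in muscle (SDHC, PPP1R15A, BOLA-DRB3, ACAA2, GLRX and ENSBTAG00000018908). Calf 3213, which the choice had not used, was below all IVP calves in 19 of 19 genes in both organs. Because its counts lie near the mean of the other MOET calves, this is no independent check.

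**Figure D4:**
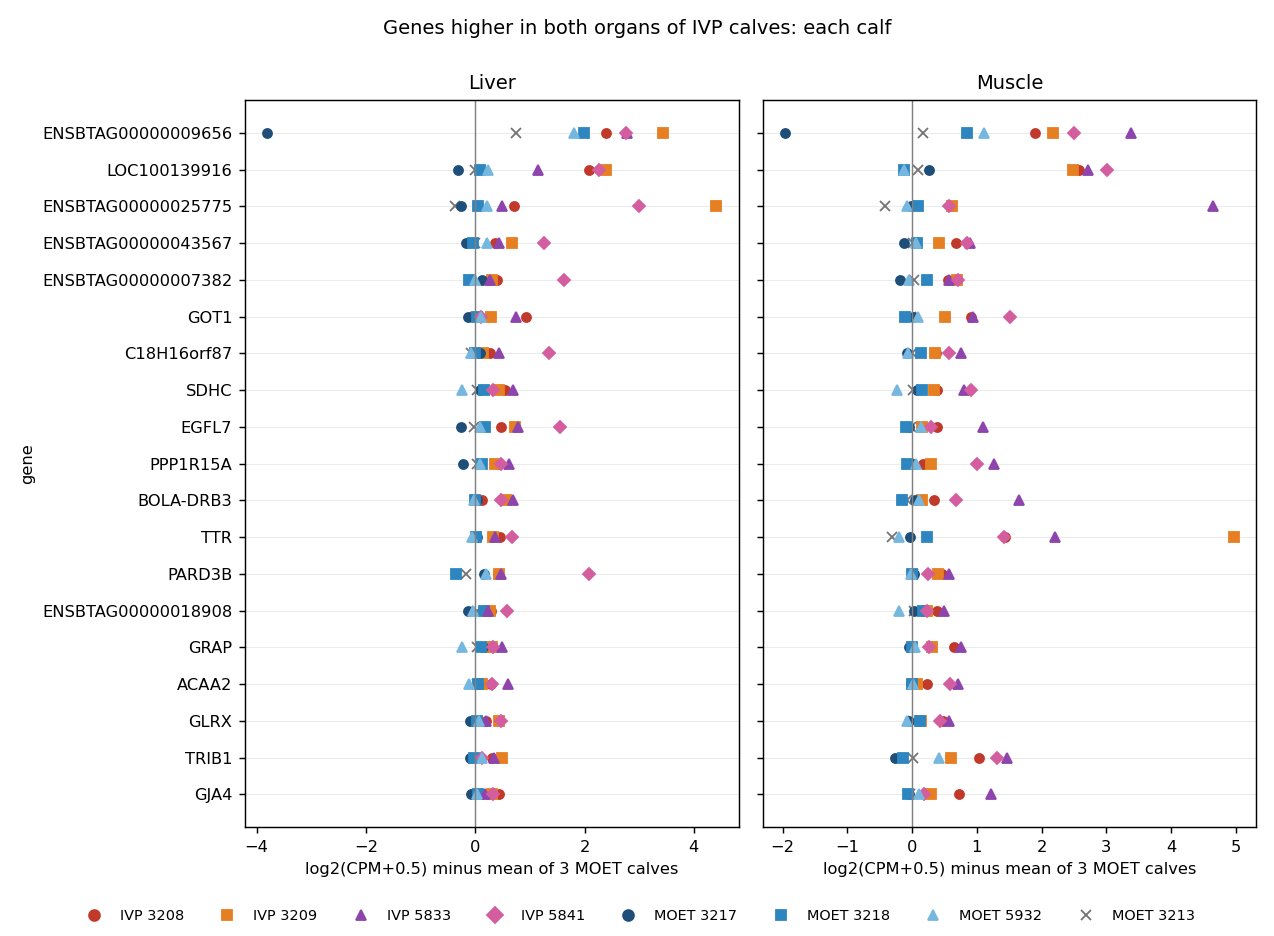
Log2(CPM+0.5) of each calf minus the mean of the 3 MOET calves, for the 19 genes in liver and muscle, with calf 3213, which was left out of the choice, as a cross. IVP calf 5841 (pink diamond) is farthest right in 8 genes in liver and IVP calf 5833 (purple triangle) in 14 genes in muscle.

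The level of the 19 genes in liver against muscle was not used to choose them, apart from the minimum of 1 CPM in each organ. In muscle LOC100139916, TTR and ENSBTAG00000025775 met that minimum through their IVP calves. For ENSBTAG00000025775 this was also so in liver, where no MOET calf used was above 0.558 CPM. The level was tested with edgeR over the 14 libraries, and a gene was called at a false discovery rate (FDR) under 0.05 and a fold change of at least 1 log2. Higher in liver were 7 of the 19, 36.8%, against 20.4% of all tested genes, and higher in muscle were 5, 26.3%, against 23.5%. The other 7 were not called, 3 of them at an FDR under 0.05 and a smaller fold. In either direction and at any fold, 15 of the 19 had such an FDR, against 80.9% of tested genes. The counts of called genes depended on the scaling. By column totals instead of TMM, 8 were higher in liver, with ENSBTAG00000018908 added, and 2 in muscle, where EGFL7 (-0.70 log2), GOT1 (-0.61) and PPP1R15A (-0.49) missed the required fold. In that scaling 35.8% of all tested genes were higher in liver and 12.8% in muscle, so the members' counts were then close to the background.

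Highest in liver over muscle by edgeR was TTR, at 10.37 log2 (SE 0.758, FDR 2.25e-09), followed by LOC100139916 at 2.71 (SE 0.371, FDR 4.83e-06) and ACAA2 at 2.40 (SE 0.111, FDR 6.20e-12). GRAP was at 1.80 log2 (edgeR FDR 3.44e-09), C18H16orf87 at 1.37 (edgeR FDR 1.57e-05) and BOLA-DRB3 at 1.20 (edgeR FDR 9.27e-06). ENSBTAG00000009656 was at 1.91 (SE 0.643, edgeR FDR 0.0122), a call lost without calf 3218 (edgeR) and with DESeq2 (adjusted p = 0.0892).

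Higher in muscle were TRIB1 at -1.95 log2 (SE 0.11, edgeR FDR 8.40e-11), ENSBTAG00000043567 at -1.78 (edgeR FDR 4.97e-08), EGFL7 at -1.35 (edgeR FDR 5.00e-06), GOT1 at -1.28 (edgeR FDR 1.86e-07) and PPP1R15A at -1.16 (edgeR FDR 7.43e-07). SDHC and GJA4 were at -0.56 (edgeR FDR 3.69e-04) and -0.62 log2 (edgeR FDR 3.97e-04), under the fold required, and turned to 0.11 and 0.055 by column totals. ENSBTAG00000018908 was at 0.82 log2 in favour of liver (edgeR FDR 2.77e-05). The organs could not be told apart for GLRX, PARD3B, ENSBTAG00000007382 and ENSBTAG00000025775 (edgeR FDR 0.249, 0.443, 0.613 and 0.578), and the first 3 of these also turned in direction by column totals. ENSBTAG00000025775 did so without calf 5833.

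**Figure D5:**
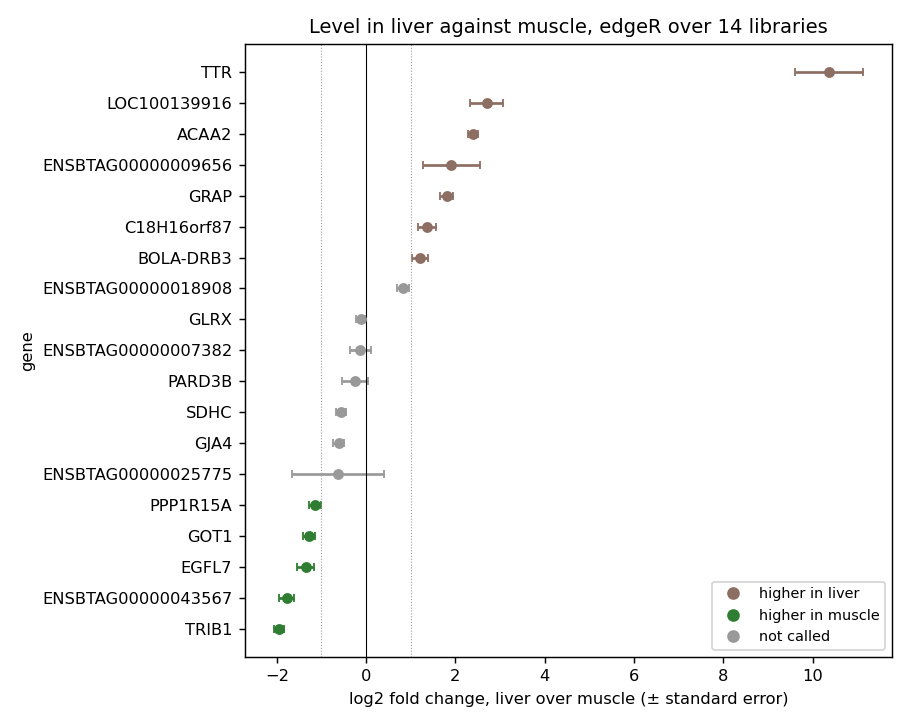
Log2 fold change of liver over muscle ± standard error from edgeR for the 19 genes over 14 libraries, with dotted lines at the required fold of 1 log2. TTR stands at 10.37, 6 others are higher in liver, 5 are higher in muscle and the 7 in grey were not called.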

How the data were processed

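Liver and muscle RNA of 4 IVP and 4 MOET calves had been sequenced in 16 libraries. The authors cleaned the reads with SOAPnuke, mapped them to bosTau9 with STAR (version 2.7), obtained counts per Ensembl gene from HTSeq and removed the effect of age with sva, whose model is not given in the sources used here. The deposited values are whole numbers for 27607 IDs, treated as estimated counts, since the authors' adjustment means that they are not reads as counted. Rounding changed 0 values, and 0 other columns of per-sample values were present. A test for counts had been planned and was kept. Without strand, overlapping genes and near-identical paralogs can share reads.

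Groups came from the labels, and parents from the methods of the study. Calf 3213 was left out, leaving 14 libraries. CPM were counts scaled by column totals, and differences are between means of log2(CPM+0.5), which understates the change of low genes. The members and all gene lists were chosen with earlier results of these data known. Named were members with a name, members of a list, and genes next to the threshold, with ENSBTAG00000009656 as the unnamed one of largest smaller difference. Names came from the study's supplementary tables, which pair 4181 IDs, so all 30 gene lists fell under 80% named and are described by counts.

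Liver was compared with muscle in R 4.3.3 with edgeR's quasi-likelihood test (version 4.0.16) on 4 group means, after filterByExpr and TMM scaling, with Benjamini-Hochberg adjustment over all genes fitted. On simulated data for this comparison (15063 genes), 200 of 200 genes changed by 1.5 log2 passed the FDR, and 3.38% of the genes that passed it were false. No fold limit was applied there. The changed genes were well counted and the same spread was used for all genes, so low or variable members were not covered. Each calf gave both organs, so calves pair the libraries. The correlation of a calf's deviations in both organs from its group means was -0.0883 to 0.172, above 0.1 in 3 of 7 calves. DESeq2 (version 1.42.0), the calf as a block, other scalings and filters and sets of calves were alternatives. Each group had few calves, and p-values and SDs measure the spread between these calves. Floors of 3 counts cover counting error only. Python 3.11.15 with pandas 2.3.3 and matplotlib 3.10.9 served for all other values and the figures. Methylation data, gene positions and sequences were not used here.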

Additional observations from a re-analysis of the deposited data

Results flagged for a closer look

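In each organ the 4 IVP calves were checked for a calf far from the others, by the gap to its nearest neighbour as a share of the group's whole range on the log2 scale, against Dixon's critical value at the 95% level. Of 38 groups looked at, 4 exceeded it. Chance flags about 1 in 20 only in groups not chosen by their values. These genes were chosen on the same IVP values, so that rate does not apply and nothing is read from the number. In liver, calf 5841 was far above the other IVP calves in PARD3B (11.4 CPM, share 0.972), ENSBTAG00000007382 (22.1 CPM, share 0.9001) and ENSBTAG00000018908 (14.7 CPM, share 0.838). In muscle, calf 5833 was far above the others in ENSBTAG00000025775 (23.3 CPM, share 0.989). Groups of 3 MOET calves were not checked.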

How the results depend on the processing

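The number of genes higher in both organs, 19, became 55 with TMM scaling (18 of the 19 among them, all but ENSBTAG00000018908), 7 with a minimum difference of 0.5, and 56 with only the 4 calves of the same parents (10 of the 19 among them). Leaving out 1 calf gave 20 (without 5833) to 66 (without 5932), with 35 without calf 3208 and 62 without calf 3209. Of the 19 members, 14 (without 5833) to 19 (without 3218) were among these. Fewer calves, here and in the 4 of the same parents, ease the requirement of no overlap, so the number can rise for that reason alone. It was 14 with a pseudocount of 2, 13 with a minimum of 5 CPM and 28 with none. Without calf 5841 in liver and 5833 in muscle it was 15, with 13 of the 19 among them. That alternative was chosen after seeing the data, as was the scaling by column totals in edgeR. The cause was not tested. No paired analysis was possible for this number because IVP and MOET calves are different animals. For the organs, the fit with the replicate block (calf) called 7 genes higher in liver and 5 in muscle and changed no call.

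Members higher in liver numbered 7, and 5 with DESeq2, which gave no adjusted p for TTR, and those higher in muscle numbered 5, and 2 by column totals. Directions that turned by column totals were those of ENSBTAG00000007382 (0.54 log2), PARD3B (0.41), GJA4 (0.055), SDHC (0.11) and GLRX (0.55), with the cause not tested. ENSBTAG00000025775 ranged from -1.40 without calf 3209 to 0.89 without calf 5833. ENSBTAG00000007382 and PARD3B passed the FDR without calf 5841, and ENSBTAG00000009656 missed it without calf 3218 and with DESeq2. Otherwise direction and side of the FDR threshold were kept, in 236 of 246 recomputed values. Of the recomputed IVP minus MOET differences, 198 of 209 in liver and 201 of 209 in muscle moved by less than 1 SD. Counts under 20 in a library, as for LOC100139916 and TTR in MOET muscle, limit the precision of low values.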
